A study of Mus musculus with 6 samples.

Results

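The nuclear-encoded subunits of the mitochondrial respiratory chain and ATP synthase were followed in tumours injected with PV-10 and in tumours injected with phosphate-buffered saline (PBS). Members were protein-coding genes whose symbol begins with Nduf and a subunit letter and number (complex I), is Sdha, Sdhb, Sdhc or Sdhd (complex II), or begins with Uqcr (complex III), Cox4 to Cox8 (complex IV) or Atp5 (complex V). This rule took 85 of the 55450 genes in the table, with 37 in complex I, 4 in complex II, 8 in complex III, 18 in complex IV and 18 in complex V. Symbols alone made the choice, so 4 members are not core subunits of the complex they are counted under, namely Ndufa4, Ndufa4l2, Cox7a2l and Atp5s. Subunits with other symbols, such as Cyc1 and Ndufab1, were left out.

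Total RNA was sequenced from 6 subcutaneous flank tumours of C57BL/6 mice, all grown from the MTE-Ras line of tracheal epithelial cancer cells, which are of mouse origin and transformed by oncogenic RAS. In 3 mice the tumour received PV-10 (rose bengal, a dye given as an injectable solution), and in the other 3 it received PBS, in both cases by injection into the lesion. The labels used here give no dose, no interval between injection and collection, and no age of the mice. Whole tumours were extracted, so host cells contribute RNA, and in such bulk samples fewer cells of a type and less RNA per cell cannot be told apart.

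The respiratory chain passes electrons from NADH (at complex I) and succinate (at complex II) through complexes III and IV to oxygen, and complex V uses the resulting proton gradient to make ATP. Most subunits are encoded in the nucleus and imported, while mitochondrial DNA encodes a few core subunits of complexes I, III, IV and V. In complexes I, III, IV and V a small catalytic core is surrounded by accessory subunits, many of them very small proteins that assemble or stabilise the core. Complex II differs in having no mitochondrially encoded subunit, and its catalytic flavoprotein Sdha is also an enzyme of the tricarboxylic acid cycle.

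Transcription of these genes is classically linked to 3 kinds of promoter site, bound by NRF1, by ETS-family factors such as GABP, and by YY1. RefSeq promoter windows (build GRCm38.p6, from 250 bases before to 50 after each start) were found for 66 of the 84 member symbols. For the members tested below, 69 windows of 64 genes were searched on both strands for GCGCA and GCGC separated by any base (NRF1), CCGGAAG (ETS) and AAGATGG (YY1). The ETS and YY1 letters share AAG and can overlap. The NRF1 letters were in 18 of 69 member windows (26.1%), against 4.60% of 32851 windows of all genes. The ETS letters were in 16 (23.2%), against 8.86%, and the YY1 letters in 10 (14.5%), against 6.34%. Of the windows of members called higher below, 57.7% held at least 1 of the 3 motifs, against 53.5% of those of members not called and 18% of all windows. A match is a description of the letters only. The 200 bases before the RefSeq start are shown for 3 genes that were higher in PV-10 tumours and for Sdha, which ran the other way, read 5′ to 3′ on the minus strand, with motif letters in capitals.

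Ndufb4 (chr16:37654369-37654568): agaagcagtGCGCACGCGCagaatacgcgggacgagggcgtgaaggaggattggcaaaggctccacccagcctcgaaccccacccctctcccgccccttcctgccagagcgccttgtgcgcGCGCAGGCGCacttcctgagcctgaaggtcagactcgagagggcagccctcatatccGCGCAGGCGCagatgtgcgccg

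Uqcrh (chr4:116075071-116075270): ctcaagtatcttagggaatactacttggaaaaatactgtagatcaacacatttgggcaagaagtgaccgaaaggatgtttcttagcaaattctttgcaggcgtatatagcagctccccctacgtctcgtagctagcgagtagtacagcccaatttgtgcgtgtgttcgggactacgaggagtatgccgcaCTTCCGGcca

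Atp5k (chr5:108434400-108434599): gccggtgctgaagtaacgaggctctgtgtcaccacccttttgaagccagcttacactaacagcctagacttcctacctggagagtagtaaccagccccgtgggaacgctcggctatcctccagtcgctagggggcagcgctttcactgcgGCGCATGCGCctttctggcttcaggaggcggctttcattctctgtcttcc

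Sdha (chr13:74350241-74350440): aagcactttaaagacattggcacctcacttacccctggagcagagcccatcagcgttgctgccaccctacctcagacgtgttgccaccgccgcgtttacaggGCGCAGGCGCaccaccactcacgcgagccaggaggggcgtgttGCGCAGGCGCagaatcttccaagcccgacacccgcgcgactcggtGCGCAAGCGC

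In the 200 bases shown, Ndufb4 and Sdha each have 3 NRF1 matches, Atp5k has 1, and Uqcrh has 1 ETS match in reverse orientation, and the full Atp5k window also holds an ETS match. Ndufb4 and Sdha thus have the same kind and number of matches in these bases, while their RNA levels lay on opposite sides of the PBS tumours.

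Gene counts summed to between 36730318 and 94203331 in PV-10 tumours and between 87386266 and 98717951 in PBS tumours. The groups also differed in makeup. Protein-coding genes took 71.3 to 76.9% of counts in PV-10 tumours and 87.1 to 89.0% in PBS tumours, while the single locus Gm42418 took 8.94 to 11.4% in PV-10 tumours and 2.55 to 3.49% in PBS tumours. The labelled epithelial origin was checked on 8 markers. Krt8 stood at 157, 169 and 270 CPM (counts scaled to a common library size, with TMM) in PV-10 tumours 1, 2 and 3 and at 394, 238 and 341 in PBS tumours 1, 2 and 3, whereas Epcam did not exceed 1.31 CPM in any tumour. No gene of the epithelial, leukocyte, fibroblast, endothelial, adipocyte and erythroid marker lists was called. Of all genes tested below, 3.17% were called higher and 1.92% lower. Summed leukocyte markers ran from 268 to 412 CPM in PV-10 tumours and from 409 to 585 CPM in PBS tumours. Yet 6 of 9 tested leukocyte markers had a positive log2 change, as had 6 of 8 epithelial ones. The median log2 change was 0.49 in both lists, against 0.30 over all genes tested. The part of library makeup in the results below was not tested.

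Many subunit genes were higher in PV-10 tumours, and none was called lower. Of the 85 members, 81 had enough counts to be tested, and 31 were called higher with edgeR's quasi-likelihood test at an adjusted p under 0.05 (Benjamini-Hochberg over 22056 genes). Over all genes tested, 3.17% were called higher and 1.92% lower. With 0 members called lower, 57 of the 81 had an unadjusted p under 0.05 in either direction (6627 of all 22056 genes did), and DESeq2 called 56 higher and 1, Sdha, lower, where it called 15.7% of all genes higher and 10.2% lower. The median log2 change over the 81 members was 1.12, against 0.30 over all genes tested. Genes with short transcripts, as most members have, also had higher medians than all genes, as given below. By complex, 12 of 37 tested members were called higher in complex I, 0 of 4 in complex II, 5 of 8 in complex III, 8 of 15 in complex IV and 6 of 17 in complex V. The median log2 changes were 1.01, 0.33, 1.38, 1.55 and 1.08 in the same order of complexes. The 31 called members changed by 1.26 to 2.80 on the log2 scale, or 2.40 to 6.96-fold, with edgeR adjusted p between 0.0443 and 0.0488.

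**Figure D1:**
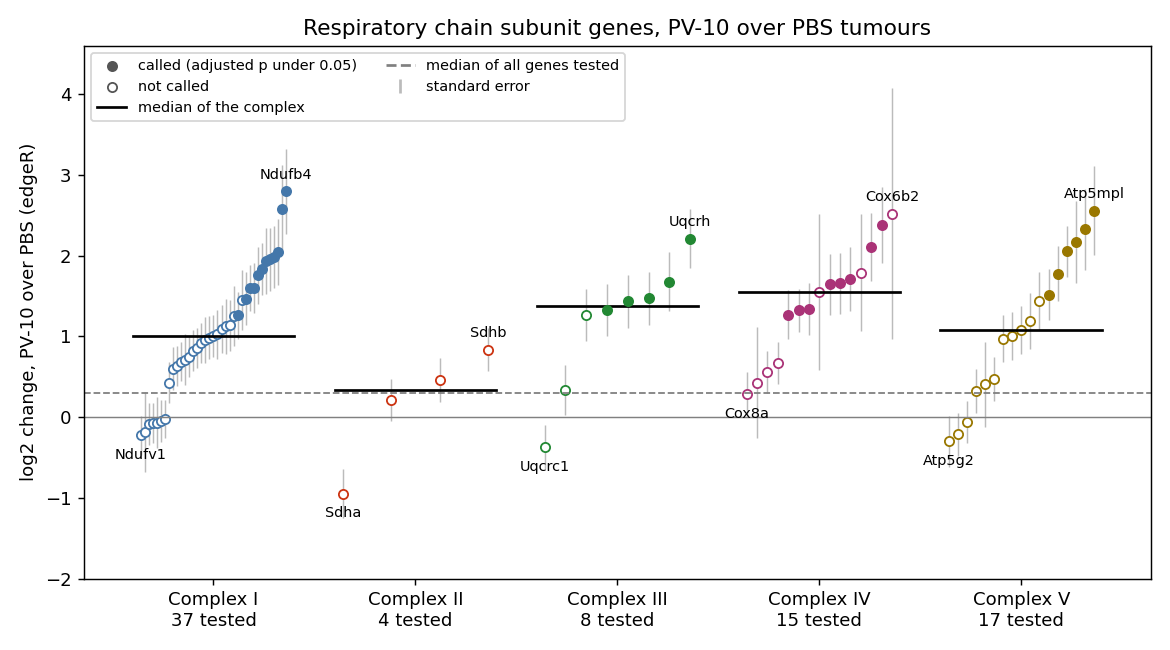
The log2 change in counts, PV-10 over PBS tumours, is plotted for the 81 tested subunit genes by complex, with bars for the standard error and filled points for genes called at an adjusted p under 0.05. Called genes are found in complexes I, III, IV and V, and Sdha of complex II is the lowest gene at -0.95.

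These calls depended on which tumours were compared. PV-10 tumour 3 was the lowest of the 3 PV-10 tumours in all 31 called members, and it lay above every PBS tumour in each. Without it, 56 members were called higher and 2 lower, Sdha and Uqcrc1, where 25% of all genes tested were called higher and 16.4% lower. Leaving out any other tumour, in either group, left 0 members called with edgeR, and 1 to 5 of all genes tested higher. In these fits 45 to 56 members and 4614 to 6851 of all genes had an unadjusted p under 0.05. The median over members ran from 0.98 to 1.23 and that over all genes from 0.26 to 0.75. Members thus stood 0.23 to 0.78 above all genes, against 0.82 with all tumours.

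**Figure D2:**
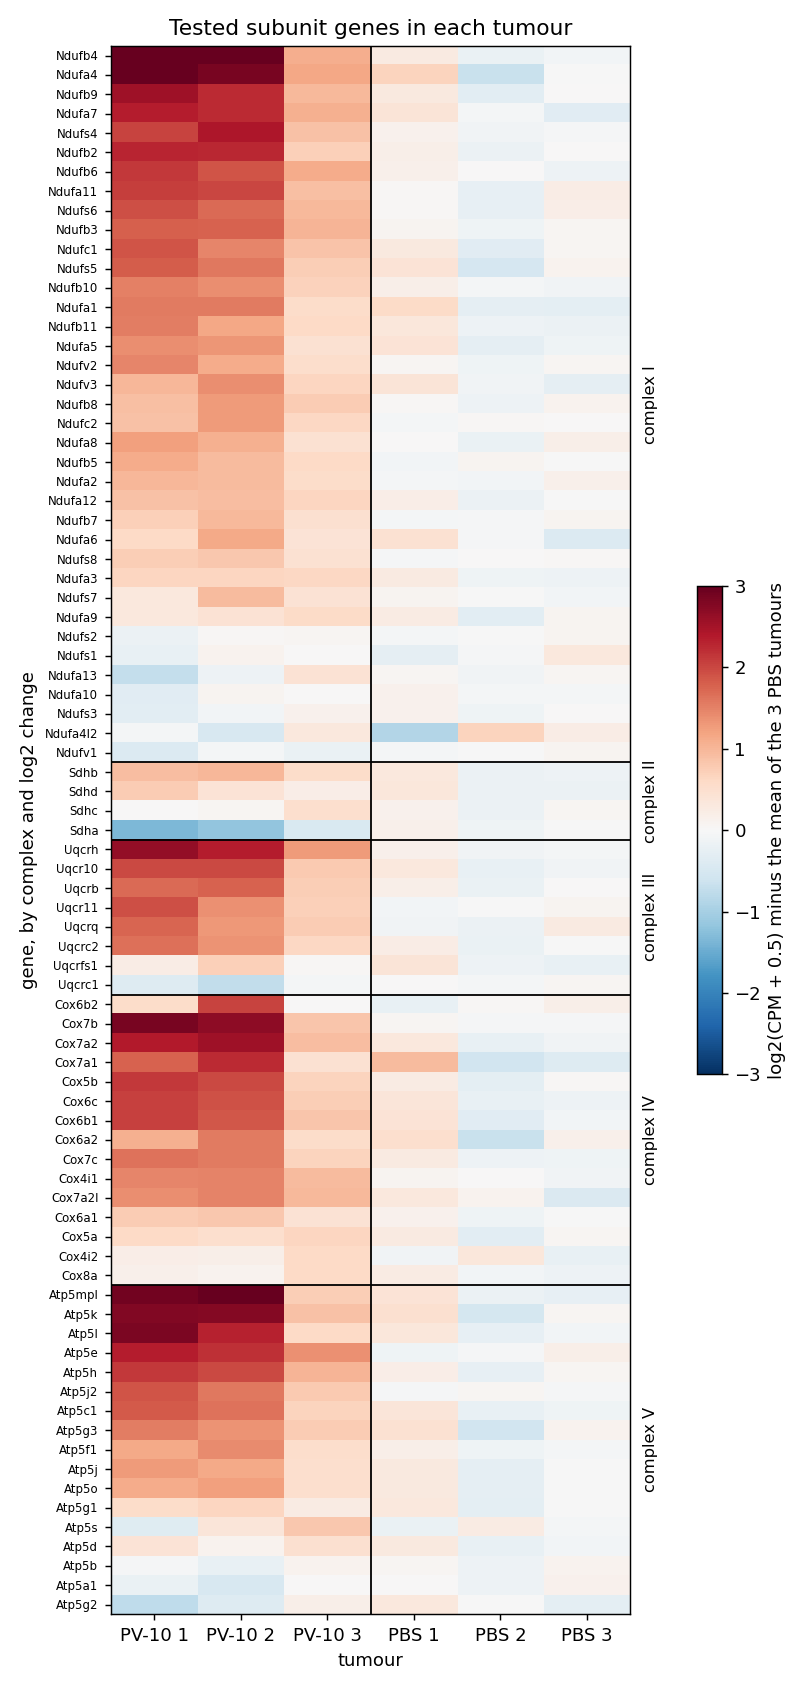
Each cell gives the log2(CPM + 0.5) of a subunit gene in a tumour minus the mean of the 3 PBS tumours, for 81 genes ordered by complex and log2 change. PV-10 tumours 1 and 2 are red over most genes, PV-10 tumour 3 is paler, and Sdha is blue in all 3 PV-10 tumours; the colour scale ends at 3 in each direction.

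In complex I every call fell outside the catalytic core. Ndufb4, an accessory subunit of the membrane arm (chr16:37647170-37654453, minus strand), had 331, 343 and 75.9 CPM in PV-10 tumours 1, 2 and 3, against 43.2, 30.7 and 33.8 CPM in PBS tumours 1, 2 and 3. PV-10 tumours 1 and 2 stood far above the rest, and PV-10 tumour 3 lay between them and the PBS tumours without overlap. The log2 change was 2.80 ± 0.52 (SE; edgeR adjusted p = 0.0443), the largest among the 81 tested members.

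Ndufa4, first described in complex I and now placed with complex IV, had 294, 223 and 69.1 CPM in PV-10 tumours, against 48.9, 19.1 and 30.4 CPM in PBS tumours, a log2 change of 2.58 ± 0.55 (edgeR adjusted p = 0.0443). Ndufb9, another accessory subunit of the membrane arm, had 317, 257 and 107 CPM in PV-10 tumours and 66.9, 43.7 and 54.6 CPM in PBS tumours (log2 change 2.04 ± 0.41, edgeR adjusted p = 0.0443). Ndufa7 had 128, 117 and 52.0 CPM in PV-10 tumours and 32.2, 23.7 and 19.4 CPM in PBS tumours (log2 change 1.98 ± 0.38, edgeR adjusted p = 0.0443). The groups did not overlap in any of these genes. The other called genes were Ndufs4, an accessory subunit whose loss causes Leigh-like disease in mice, and Ndufb2, Ndufb6, Ndufa11, Ndufs6, Ndufb3, Ndufc1 and Ndufb10, with log2 changes of 1.26 to 1.96.

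The 7 core subunits encoded in the nucleus, which hold the flavin and the iron-sulfur clusters, gave no call, and their median log2 change was -0.02. The other 30 Nduf genes gave 12 calls and a median of 1.13. Core transcripts were also the longer ones on median, as given below. Without overlap in CPM, 3 of the 7 core genes were higher in PV-10 tumours and 1 lower, against 25 and 0 of the other 30. Of all genes tested, 22% were higher and 16.8% lower in this way. The 3 higher core genes were Ndufv2, Ndufs7 (log2 change 0.60) and Ndufs8 (0.69). Ndufs1, which carries iron-sulfur clusters of the NADH-oxidising arm, had 28.1, 35.3 and 33.1 CPM in PV-10 tumours, against 27.1, 32.1 and 40.9 CPM in PBS tumours. The groups overlapped throughout (log2 change -0.05 ± 0.26, edgeR adjusted p = 0.909). Ndufv1, which binds the flavin, had 27.8, 35.7 and 32.4 CPM in PV-10 tumours and 35.8, 37 and 39.3 CPM in PBS tumours (log2 change -0.23 ± 0.24, edgeR adjusted p = 0.545). Each PV-10 tumour lay below each PBS tumour for Ndufv1, by little. Ndufv2, the partner of Ndufv1, was the core gene with the most positive value, at 149, 116 and 76.7 CPM in PV-10 tumours, against 55.8, 49.0 and 55.6 CPM in PBS tumours (log2 change 1.09 ± 0.30, edgeR adjusted p = 0.0585).

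Ndufa12, among the more abundant complex I genes, had 135, 140 and 115 CPM in PV-10 tumours and 83.4, 64.0 and 72.6 CPM in PBS tumours (log2 change 0.82 ± 0.25, edgeR adjusted p = 0.0705). Ndufa4l2, a hypoxia-inducible relative of Ndufa4, was low everywhere, at 3.91, 2.79 and 5.20 CPM in PV-10 tumours, against 1.98, 6.72 and 4.86 CPM in PBS tumours. Its groups overlapped, and the log2 change was -0.19 ± 0.50.

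Complex II had no call, its 4 subunits did not move alike, and its median of 0.33 with TMM scaling became -0.47 on the log2(TPM + 1) scale. Sdha, the flavoprotein that oxidises succinate (chr13:74322254-74350280, minus strand), had 32.9, 37 and 61.3 CPM in PV-10 tumours, against 92.9, 76.7 and 83.6 CPM in PBS tumours. All 3 PV-10 tumours lay below all 3 PBS tumours, with PV-10 tumour 3 nearest to them. The log2 change of -0.95 ± 0.30 missed the threshold (edgeR adjusted p = 0.0755) and passed it without PV-10 tumour 3 (-1.27, edgeR adjusted p = 0.00163).

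Sdhb, the iron-sulfur subunit that takes electrons from Sdha, had 51.1, 53.6 and 39.0 CPM in PV-10 tumours, against 33.1, 23.5 and 23.8 CPM in PBS tumours (log2 change 0.84 ± 0.27, edgeR adjusted p = 0.0766). Its groups did not overlap, with the PV-10 tumours higher. The membrane anchors overlapped between groups. Sdhc had 75.5, 78.3 and 106 CPM in PV-10 tumours and 81.5, 66.0 and 77.3 CPM in PBS tumours (log2 change 0.21 ± 0.26, edgeR adjusted p = 0.615). Sdhd had 49.9, 39.4 and 33.9 CPM in PV-10 tumours and 37.4, 26.2 and 26.1 CPM in PBS tumours (log2 change 0.46 ± 0.27, edgeR adjusted p = 0.294).

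In complex III the small subunits were called higher and the large core protein Uqcrc1 was not. This division did not hold with the effective length trend of each library removed, as described below. The 2 calls of the complex were then the small subunit Uqcrh and the large core protein Uqcrc2. Uqcrh, the hinge protein next to cytochrome c1 (chr4:116066965-116075071, minus strand), had 171, 140 and 66.4 CPM in PV-10 tumours, against 30.3, 25.1 and 26.2 CPM in PBS tumours. The lowest PV-10 tumour was above the highest PBS tumour, and the log2 change was 2.21 ± 0.37 (edgeR adjusted p = 0.0443). Uqcr10 had 126, 126 and 54.5 CPM in PV-10 tumours and 39.5, 26.8 and 29.3 CPM in PBS tumours (log2 change 1.68 ± 0.37, edgeR adjusted p = 0.0443). Uqcrb, Uqcr11 and Uqcrq, also small subunits, were called with log2 changes of 1.47, 1.44 and 1.33.

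Uqcrc1 had 107, 84.6 and 134 CPM in PV-10 tumours, against 141, 134 and 147 CPM in PBS tumours (log2 change -0.37 ± 0.27, edgeR adjusted p = 0.378). PV-10 tumours 1 and 2 were the lowest and PV-10 tumour 3 reached the PBS tumours. Its partner core protein Uqcrc2 had 175, 143 and 85.8 CPM in PV-10 tumours and 65.2, 48.2 and 54.9 CPM in PBS tumours, without overlap and just outside the threshold (log2 change 1.26 ± 0.32, edgeR adjusted p = 0.0510). Uqcrfs1, the Rieske iron-sulfur protein, overlapped between groups, at 10.9, 15.4 and 9.43 CPM in PV-10 tumours, against 12.2, 8.30 and 7.78 CPM in PBS tumours.

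Complex IV had the highest median, except that complex III was higher on the log2(TPM + 1) scale (0.50 against 0.46) and without PV-10 tumour 2 (1.297 against 1.194). With TMM scaling all 15 of its tested genes had a positive log2 change, though Cox8a, Cox6a1, Cox5a and Cox4i2 were negative on the log2(TPM + 1) scale. Cox7b, a small membrane subunit, had 216, 191 and 52.5 CPM in PV-10 tumours, against 30.8, 28.6 and 28.8 CPM in PBS tumours (log2 change 2.38 ± 0.48, edgeR adjusted p = 0.0443). The PBS tumours were nearly equal, and PV-10 tumour 3 was nearer to them than to the other PV-10 tumours. Cox7a2 had 254, 284 and 91.8 CPM in PV-10 tumours and 60.3, 40.9 and 44.9 CPM in PBS tumours (log2 change 2.11 ± 0.42, edgeR adjusted p = 0.0443). Cox5b, Cox6c and Cox6b1 were called with log2 changes of 1.71, 1.66 and 1.64, and Cox7c and Cox4i1 (the largest nuclear subunit) with 1.34 and 1.32. Cox7a2l, which encodes a supercomplex assembly protein and not a core subunit, was called at 1.27.

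Cox4i1 had 176, 177 and 122 CPM in PV-10 tumours, against 67.1, 64.0 and 58.8 CPM in PBS tumours, without overlap. Cox8a, the smallest-change gene of the complex, had 163, 157 and 222 CPM in PV-10 tumours and 174, 138 and 131 CPM in PBS tumours (log2 change 0.29 ± 0.27, edgeR adjusted p = 0.501). Its groups overlapped, and PV-10 tumour 3 was the highest of the 6. Cox6a1 had 231, 239 and 183 CPM in PV-10 tumours and 150, 124 and 135 CPM in PBS tumours, without overlap and without a call (log2 change 0.67 ± 0.26, edgeR adjusted p = 0.114).

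Isoforms of complex IV that replace the common ones in muscle, lung or testis were rare in every tumour. Of the 8 tissue isoforms listed, Ndufa4l2 among them, Cox8b, Cox8c and Cox7b2 had too few counts to be tested, and none of the other 5 was called. Cox7a1, the heart and muscle form, had 5.20, 7.31 and 1.79 CPM in PV-10 tumours, against 2.73, 0.620 and 0.772 CPM in PBS tumours (log2 change 1.79 ± 0.73, edgeR adjusted p = 0.135). In TPM (abundance scaled to transcript length) it made up 3.68, 4.44 and 3.83% of Cox7a RNA in PV-10 tumours and 8.39, 2.80 and 3.25% in PBS tumours. Cox6a2, also a muscle form, had 1.67, 2.55 and 1.02 CPM in PV-10 tumours and 0.966, 0.155 and 0.656 CPM in PBS tumours.

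Skeletal muscle RNA varied widely between tumours. Summed over 12 muscle markers, the level was 87.7, 384 and 5.64 CPM in PV-10 tumours and 45.0, 7.40 and 5.12 CPM in PBS tumours, with 0 of 12 called, and Myh4 was at 0 in PV-10 tumour 3 and in PBS tumours 1 and 2. The same 3 tumours, PV-10 1, PV-10 2 and PBS 1, were the highest in muscle markers and in Cox7a1, whereas Cox6a2 was higher in PV-10 tumour 3 than in PBS tumour 1. The part of muscle in the Cox7a1 and Cox6a2 values was not tested. The testis form Cox6b2 and the lung form Cox4i2 stayed at or below 2.19 and 2.11 CPM.

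In complex V all but 1 of the calls lay outside the F1 part of the enzyme. Atp5k, subunit e at the dimer interface of the enzyme (chr5:108433244-108434448, minus strand), had 239, 234 and 63.8 CPM in PV-10 tumours, against 48.1, 23.5 and 35.5 CPM in PBS tumours (log2 change 2.33 ± 0.51, edgeR adjusted p = 0.0443). Atp5l, subunit g, had 423, 295 and 89.5 CPM in PV-10 tumours and 74.9, 49.4 and 55.2 CPM in PBS tumours (log2 change 2.17 ± 0.50, edgeR adjusted p = 0.0469). Atp5mpl, a small membrane proteolipid of the enzyme, had 154, 181 and 34.2 CPM in PV-10 tumours and 27.4, 18 and 17.1 CPM in PBS tumours (log2 change 2.56 ± 0.55, edgeR adjusted p = 0.0443). In all 3 genes the PV-10 tumours lay above the PBS tumours, with PV-10 tumour 3 closest to PBS tumour 1. Atp5h of the peripheral stalk and Atp5j2, subunit f, were called at 1.78 and 1.51.

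The F1 part, the head where ATP is made and its central stalk, gave 1 call among 5 genes. Its median log2 change was 0.32, against 5 calls among 12 tested other complex V genes and a median of 1.13. That call was Atp5e, the small epsilon subunit, with 85.1, 75.8 and 43.0 CPM in PV-10 tumours and 14.8, 15.8 and 18.4 CPM in PBS tumours (log2 change 2.06 ± 0.32, edgeR adjusted p = 0.0443). Atp5b, the catalytic beta subunit, had 596, 522 and 658 CPM in PV-10 tumours and 642, 548 and 657 CPM in PBS tumours. The groups overlapped fully (log2 change -0.06 ± 0.26, edgeR adjusted p = 0.898). Atp5a1, the alpha subunit, had 305, 252 and 350 CPM in PV-10 tumours and 352, 315 and 384 CPM in PBS tumours (log2 change -0.21 ± 0.26, edgeR adjusted p = 0.610). Atp5c1, the rotating gamma subunit, stood apart from both, at 1012, 874 and 451 CPM in PV-10 tumours, against 363, 242 and 258 CPM in PBS tumours, without overlap and just short of a call (log2 change 1.44 ± 0.36, edgeR adjusted p = 0.0505).

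Mouse encodes the c subunit of the proton-turning ring in 3 genes that give the same mature protein. Atp5g3 had 258, 225 and 150 CPM in PV-10 tumours and 122, 59.4 and 96.1 CPM in PBS tumours (log2 change 1.19 ± 0.34, edgeR adjusted p = 0.0632). It made up 71.1, 67.1 and 53.8% of c-subunit TPM in PV-10 tumours, against 48.3, 38.8 and 50.1% in PBS tumours, without overlap. Atp5g2 supplied 10.1, 12.9 and 24.8% in PV-10 tumours and 28.3, 36.6 and 24.2% in PBS tumours, where PV-10 tumour 3 fell within the PBS range. Summed c-subunit TPM overlapped between groups, at 260, 263 and 295 in PV-10 tumours and 318, 272 and 293 in PBS tumours, whereas summed CPM did not overlap, at 382, 364 and 288 in PV-10 tumours and 268, 166 and 203 in PBS tumours. Atp5o is listed under 2 gene identifiers, and the second had no count in any tumour.

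Set against each other within a tumour, subunits of the same complex stood in different ratios. Per transcript length, Sdhb over Sdha was 3.34, 2.40 and 1.22 in PV-10 tumours, against 0.616, 0.512 and 0.476 in PBS tumours. Uqcrh over Uqcrc1 was 6.06, 6.28 and 1.88 in PV-10 tumours and 0.843, 0.738 and 0.683 in PBS tumours. Atp5c1 over Atp5b was 1.44, 1.36 and 0.768 in PV-10 tumours and 0.586, 0.502 and 0.470 in PBS tumours. In each of these ratios every PV-10 tumour exceeded every PBS tumour, and PV-10 tumour 3 was the nearest to the PBS tumours. Such a ratio shows unequal change and not which gene changed, and these pairs were chosen after their values were seen.

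**Figure D3:**
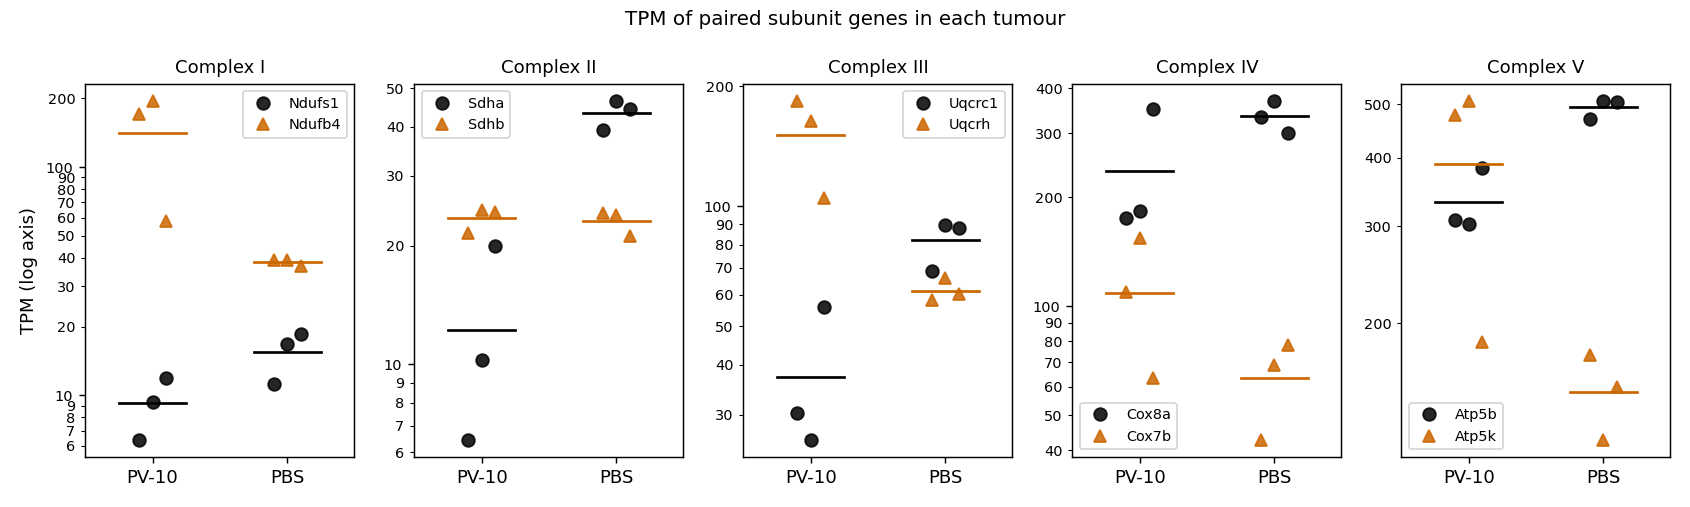
TPM on a log axis is plotted in each tumour for a pair of subunit genes from each complex, with bars at the group means and the PV-10 tumours 1 to 3 and PBS tumours 1 to 3 from left to right within a group. Sdhb over Sdha is 1.22 or more in the PV-10 tumours and 0.616 or less in the PBS tumours.

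In TPM, tested with limma in place of edgeR, fewer members were called higher. Over all genes the calls were more, at 4037 on the log2(TPM + 1) scale against 1122 with edgeR and TMM scaling. Summed TPM over all members was 8939, 9194 and 6888 in PV-10 tumours, against 6321, 6512 and 6236 in PBS tumours. The sums did not overlap in complexes I, III, IV and V, with PV-10 tumours higher, and in complex II the PV-10 tumours were lower, at 83.6, 90.4 and 125 TPM against 157, 164 and 152 TPM in PBS tumours. On the log2(TPM + 1) scale, limma called 8 members higher, namely Ndufb4, Ndufa4, Ndufb9, Ndufs4, Uqcrh, Cox7a2, Atp5k and Atp5e, and 2 lower, Sdha (-1.87) and Uqcrc1 (-1.18). Of all genes tested, 1.14% were called higher and 17.2% lower on this scale. The scale moves the median of all genes to -0.21, against 0.30 with TMM scaling, and the median of members to 0.30, so members stood 0.51 above all genes in TPM and 0.82 above them in counts. Groups did not overlap in CPM for 57 members that were higher and 2, Sdha and Ndufv1, that were lower, where 22 and 16.8% of all genes tested did so. In TPM the same counts were 30 and 11 members, where 9.58 and 31% of all genes tested did so.

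Short transcripts dominated among the members, and transcript length moved with the change. The effective length of a gene (its count over its TPM, relative to the median gene) had a median of 0.246 in members and 0.925 in all genes tested, and of 0.188 in the 31 called and 0.309 in the 50 not called. Across the 81 members the log2 change correlated with log2 effective length at Pearson's r = -0.59 and Spearman's rho = -0.56, a description over genes measured in the same 6 libraries. Median effective length was 0.517 in the 7 core genes of complex I and 0.231 in its other 30 genes. In complex V it was 0.433 in the 5 F1 genes and 0.273 in the 12 other tested genes. Within complexes r was -0.44 in I, -0.71 in III, -0.20 in IV and -0.75 in V. Across 20460 genes tested that have an effective length r was -0.17 and rho -0.32. Relative to the mean of all libraries, log2 CPM changed by -0.18, -0.11 and -0.07 per doubling of length in PV-10 tumours and by 0.11, 0.15 and 0.10 in PBS tumours.

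Among genes with a mean count of at least 50, 50 of 80 members lay above the median log2 change of all genes in their length bin. In the bins with the most members, log2 effective length ran from -3.0 to -2.5, -2.5 to -2.0 and -2.0 to -1.5. The medians of all genes in these bins were 1.47, 1.23 and 0.94, against 0.06 over all genes with such a count. Members above these medians numbered 10 of 14, 10 of 20 and 12 of 18. Genes as short as these members were thus also higher on median in PV-10 tumours. With the effective length trend of each library removed, 17 members were called higher, where 2.58% of all genes tested were called higher and 0.304% lower. Of these members 16 were among the 31, and the other was Uqcrc2 (1.32, edgeR adjusted p = 0.0495). The 17 also included Ndufb4 (2.60, edgeR adjusted p = 0.0485), Uqcrh (1.81), Cox7a2 (1.77) and Atp5e (1.59). The medians were 0.91 over members and 0.45 over all genes. With a trend in annotated transcript length and GC content removed instead, edgeR called 0 of 22056 genes (54 members and 5591 of all genes had an unadjusted p under 0.05, and the lowest adjusted p of any gene was 0.0504). The member median was then 0.82, against 0.23 over all genes.

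**Figure D4:**
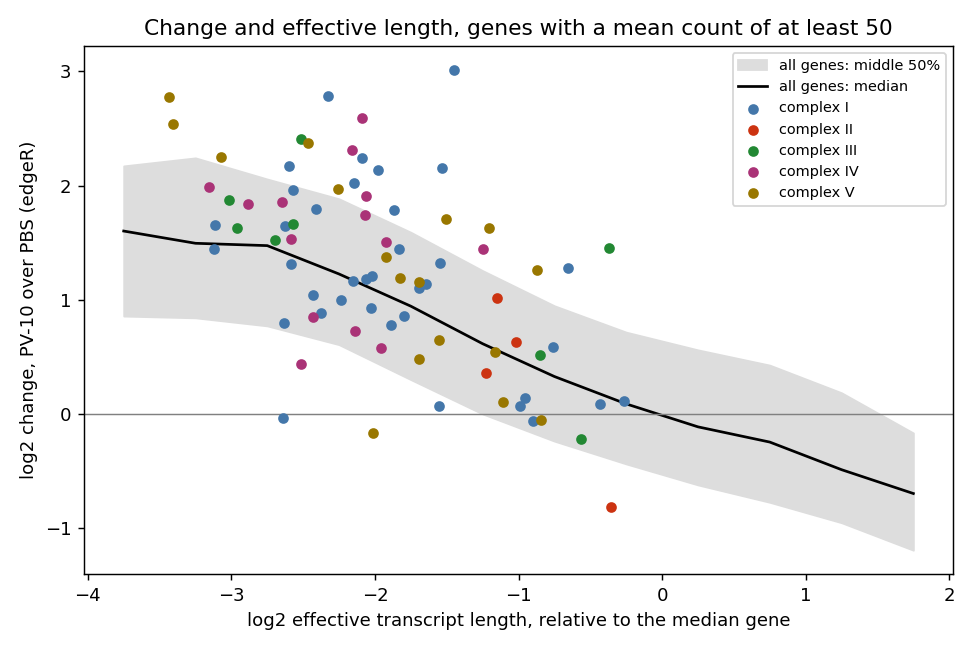
The log2 change of 80 subunit genes with a mean count of at least 50 is plotted against log2 effective transcript length relative to the median gene, coloured by complex, over the median (line) and middle 50% of all genes (grey band) in length bins. The median of all genes falls with length, and 50 of the 80 subunit genes lie above it.

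Related genes of the pathway were followed from lists. Of 45 tested assembly factors, which build the complexes without staying in them, 9 were called higher and 0 lower, with a median log2 change of 0.80, against 3.17% called higher and a median of 0.30 over all genes tested. On the log2(TPM + 1) scale their median was 0.03, against -0.21 over all genes, and with the effective length trend removed 6 were called. The 9 were Ndufaf2, Ndufaf4 and Ndufaf5 of complex I, Uqcc2 of complex III, and Cox14, Cox16, Cox19, Pet100 and Coa3 of complex IV, at 1.21 to 2.10. None of the 13 mitochondrially encoded subunits was called, and their median was -0.19. Summed over these 13, TPM was 16135, 21883 and 42052 in PV-10 tumours, against 56642, 63784 and 46648 in PBS tumours, so each PV-10 tumour was below each PBS tumour while the nuclear sum was above. In TMM-scaled CPM the mitochondrially encoded sums overlapped, at 29720, 38356 and 53382 in PV-10 tumours and 60742, 47950 and 39852 in PBS tumours.

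None of 16 genes of the tricarboxylic acid cycle and pyruvate dehydrogenase was called, with a median log2 change of -0.14. With 3.17% of all genes tested called higher and 1.92% lower, a list this short may hold no call. Cs, citrate synthase, had 65.9, 52.0 and 144 CPM in PV-10 tumours and 163, 169 and 175 CPM in PBS tumours (log2 change -0.95 ± 0.38, edgeR adjusted p = 0.130). Ogdh, of the oxoglutarate dehydrogenase complex, was the lowest of this list, at 76.1, 86.8 and 150 CPM in PV-10 tumours, against 224, 212 and 231 CPM in PBS tumours (log2 change -1.09 ± 0.31, edgeR adjusted p = 0.0629). In both genes the groups did not overlap and PV-10 tumour 3 was the nearest to the PBS tumours, as for Sdha. The list as a whole did not move alike, and 7 of the 16 had a positive log2 change, up to 0.96. In CPM 5 of the 16 were higher in PV-10 tumours without overlap and 4 lower, where 22 and 16.8% of all genes tested did so. None of 12 regulators of mitochondrial biogenesis was called either, with a median of -0.19. Of the 12, 5 had a positive log2 change, up to 0.85, and in CPM 3 were higher and 2 lower without overlap. Among these regulators Nrf1 (log2 change -0.13 ± 0.26) and Gabpa (-0.25 ± 0.27), whose proteins bind 2 of the promoter motifs above, had edgeR adjusted p of 0.756 and 0.542. Pprc1, a coactivator of NRF1, had 25.2, 38.6 and 87.6 CPM in PV-10 tumours and 145, 141 and 160 CPM in PBS tumours (log2 change -1.56 ± 0.43, edgeR adjusted p = 0.0589).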

How the data were processed

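RNA from 6 tumours, 3 injected with PV-10 and 3 with PBS, was sequenced as strand-specific paired reads, per the labels' protocols. Per the labels' protocols adapters were found with BBMerge 37.02 and removed with cutadapt 1.8.1, reads were aligned to mm10 with STAR 2.7.7a, and genes were quantified with RSEM 1.3.0 on Gencode release M21. The deposited table of expected counts holds RSEM gene values given as whole numbers, not normalized. The deposited TPM table holds the same genes scaled to transcript length and to a common total per tumour. RSEM divides reads among similar sequences, so small subunit genes with processed pseudogenes are uncertain.

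The members and gene lists were chosen with earlier results of these data known. Counts were tested with edgeR 4.0.16 (R 4.3.3; quasi-likelihood F test, robust, TMM scaling, expression filter at its defaults, Benjamini-Hochberg adjustment over 22056 genes, called at an adjusted p under 0.05), on group alone. The adjustment gives many genes a common value, hence the repeated 0.0443. CPM are TMM-scaled, and the standard error was computed from the absolute log2 change and the root of the F statistic. The biological coefficient of variation was 0.777. Total counts of 36730318 to 98717951 make 3 counts, a floor for counting error only, 0.0304 to 0.0817 CPM. Each group had 3 tumours from separate mice, so the spread includes that between animals. Named genes were, in each complex, up to 4 called members with the largest change, the 2 with the highest mean TPM, the one with the lowest change, and a fixed set of core, isoform and c-ring genes. Others named were chosen after their values were seen.

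Alternatives were DESeq2 1.42.0 and its size factors, library size alone, other count filters, limma-voom and limma (3.58.1) on log2 TPM (pseudocounts 1 and 0.1), leaving out mitochondrially encoded or non-coding genes, a replicate block, each tumour left out, and removal of each library's trend with effective length or with transcript length and GC content (splines with 5 degrees of freedom). The fits were tested on simulated data. Where a length trend was simulated, the fit without trend removal called more unchanged genes than the fit with it removed. The trend was removed with the same effective length it was simulated from, and changed genes were drawn without regard to length. The simulation thus does not cover changes that follow length. Promoter windows are those of RefSeq on GRCm38.p6, the build mm10.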

Additional observations from a re-analysis of the deposited data

How the results depend on the processing

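The call of 31 members higher rested on the exact settings, while a positive median did not in complexes I, III, IV and V. Members called higher numbered 56 with DESeq2 (1 lower; 15.7% of all genes called higher), 47 with its size factors (6.66%), 54 with a mean count of at least 50 (10.1%), 53 with protein-coding genes alone (9.58%), 34 with library size alone (1 lower; 4.44%), 42 without a low-count filter (1 lower; 5.2%) and 39 with limma-voom (3.79%). All 31 were among those called in each of these 7 settings, and the 1 called lower was Sdha in each case. The cause of these differences was not tested. Without a low-count filter the median over members was 1.072 and that over all genes 1.626, so members stood below all genes there. On log2(TPM + 1) and log2(TPM + 0.1), 8 and 9 members were called higher and 2 and 2 lower (1.14 and 1.9% of all genes higher). The medians on these 2 scales were 0.3017 and 0.3096 over all members, 0.1978 and 0.2074 in complex I, -0.4675 and -0.4801 in complex II, 0.4999 and 0.504 in complex III, 0.4638 and 0.7108 in complex IV, and 0.2251 and 0.2277 in complex V.

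With the effective length trend removed 17 members were called higher, and with the length and GC trend removed 0, with medians of 0.1026 in complex II and 0.8701 in complex III. A mean count of at least 50 together with removal of either trend was chosen after seeing the data. Both gave 0 members called higher, where 0 and 1 of all 15758 genes were called. In these fits 36 and 47 members and 5096 and 4817 of all genes had an unadjusted p under 0.05. The medians with the effective length trend were 0.4818 over all members, 0.419 in I, 0.5382 in III, 0.7636 in IV and 0.6308 in V, and with the length and GC trend 0.7192 over all members, 0.686 in I and 1.007 in IV.

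Leaving out each tumour in turn gave 0 to 56 members called higher and 0 to 2 lower, where 56 and 2 came without PV-10 tumour 3 and 0 without any other. The median over members stayed between 0.9786 and 1.351, while that over all genes tested ran from 0.2637 to 0.8888. Members thus stood 0.233 to 0.7759 above all genes, against 0.8214 with all tumours.

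A replicate block gave 38 members called higher, all 31 among them (4.78% of all genes). The tumours share only a number: deviations of same-numbered tumours correlated at -0.049, 0.071 and 0.072, so no pairing was assumed. With the block and the effective length trend removed, 30 were called higher (4.51% of all genes higher, 2.94% lower) and the complex I median was 0.6961.

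The genes given here as changing sign had an edgeR adjusted p over 0.05 in the fit reported above. Atp5b and Ndufs1 were at 0.05153 and 0.06784 with DESeq2, 0.05151 and 0.06815 with its size factors, 0.102 and 0.1168 with a mean count of at least 50, and 0.07719 and 0.08941 with protein-coding genes alone. Ndufa4l2 was at 0.0193 with limma-voom. On log2(TPM + 1) and log2(TPM + 0.1) Atp5g1 was at -0.3971 and -0.403, Cox4i2 at -0.2373 and -0.3619, Cox6a1 at -0.1836 and -0.1842, Cox8a at -0.5721 and -0.5742, Sdhc at -0.6011 and -0.6117, Sdhd at -0.334 and -0.3485, and Uqcrfs1 at -0.3936 and -0.4589. On log2(TPM + 1) Ndufb5, Ndufa2, Ndufa6, Ndufs8, Ndufa3, Ndufs7, Ndufa9, Cox5a, Atp5s and Atp5d, positive with TMM scaling, were negative as well, down to -0.45 in Atp5d. With the effective length trend removed Cox8a was at -0.09276 and Ndufs1 at 0.01328, and with the block as well at -0.1057 and 0.02783. With the length and GC trend removed Ndufa4l2 was at 0.0678 and Uqcrfs1 at -0.02301. With a mean count of at least 50 and the effective length trend removed Cox4i2 was at -0.1796, Cox6a1 at -0.1055, Cox8a at -0.485, Ndufs1 at 0.1926 and Sdhc at -0.04531, and with that filter and the length and GC trend removed Atp5a1 was at 0.2428, Cox8a at -0.07733 and Ndufv1 at 0.05157. With 1 tumour left out Ndufs1 ran from -0.219 to 0.09083, Atp5b from -0.1675 to 0.00928 and Ndufa4l2 from -0.5754 to 0.183. Of the other values compared outside the omission of a tumour, 483 kept their direction and side of the threshold, 85 lost a call and 32 gained one.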

Other observations

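Mitochondrial ribosomal proteins, which translate the mitochondrially encoded subunits, were also higher in PV-10 tumours in part. Of 78 tested genes whose symbol begins with Mrpl or Mrps, 23 were called higher and 0 lower with edgeR (Benjamini-Hochberg over 22056 genes), with a median log2 change of 0.79, against 3.17% called higher and a median of 0.30 over all genes tested. Mrpl41 had 110, 68.2 and 24.5 CPM in PV-10 tumours 1, 2 and 3, against 11.9, 9.68 and 14.8 CPM in PBS tumours 1, 2 and 3 (log2 change 2.48 ± 0.49, edgeR adjusted p = 0.0443). Mrpl33 had 108, 106 and 27.5 CPM in PV-10 tumours and 18.3, 16.6 and 19.3 CPM in PBS tumours (log2 change 2.15 ± 0.47, edgeR adjusted p = 0.0443). Both genes were lowest among PV-10 tumours in tumour 3, without overlap with the PBS tumours. Mrps2 was the lowest of the family, with CPM values of 21.5, 22.4 and 45.7 in PV-10 tumours and 43.5, 37.7 and 48.3 in PBS tumours (log2 change -0.53 ± 0.34, edgeR adjusted p = 0.316). Their median effective length was 0.440 relative to the median gene, and with the effective length trend removed 11 were called (2.58% of all genes were called higher) and the median was 0.74. Summed TPM over the 78 genes was 2372, 2208 and 1809 in PV-10 tumours and 1552, 1733 and 1737 in PBS tumours.

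Cytochrome c, the mobile carrier between complexes III and IV, is encoded by Cycs, which had 221, 151 and 93.6 CPM in PV-10 tumours and 68.8, 41.9 and 73.5 CPM in PBS tumours (log2 change 1.34 ± 0.37, edgeR adjusted p = 0.0593). Its partner in complex III, Cyc1, had 27.0, 29.1 and 27.4 CPM in PV-10 tumours and 24.2, 25 and 27.6 CPM in PBS tumours (log2 change 0.12 ± 0.23, edgeR adjusted p = 0.747).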
